A study of Mus musculus with 25 samples.

Results

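The comparison set iHeps that carried a scramble shRNA against untransduced iHeps, and used 7 of the 25 arrays of the series. The 4 scramble arrays and the 3 untransduced arrays were chosen by their sample titles, and every probe set with 1 gene symbol was considered. iHeps are induced hepatocyte-like cells. Here they came from fibroblasts of midgestation C57BL/6J embryos that had received retroviruses carrying Foxa1 and Hnf4a. The untransduced group held 3 independent lines, called lines 1, 2 and 3 below, which were kept in hepatocyte medium with 10% serum, insulin, dexamethasone, nicotinamide, hepatocyte growth factor and epidermal growth factor. For the scramble group, iHeps received a lentivirus with a non-targeting shRNA, 2 days of puromycin and then 1 week of culture. Cells of both groups therefore carried the Foxa1 and Hnf4a retroviruses, and only the scramble group also carried a lentivirus and had met puromycin. The labels do not say which iHep line or lines received the scramble shRNA, nor whether the 4 scramble arrays came from separate cultures. Transduction, selection, time in culture and line cannot be told apart in this comparison, so the p-values describe the spread among these arrays, which may be technical within the scramble group. Cdx2 shRNA iHeps (4 arrays) were treated in the same way with another shRNA, and their levels are given beside some results. For Ms4a4c and Clca1, levels in other groups of the series, with 2 arrays each, are given too. These were colon-engrafted iHeps (12 days of engraftment), fetal liver (midgestation), and adult liver and colon (both at 8 weeks of age). They differ from the cultured iHeps in more than treatment, so only their levels are given.

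A scramble shRNA is a control for gene knockdown: it loads the RNA interference machinery without a matching transcript, and it carries along whatever viral entry, integration, drug selection and later culture do to the cells. Foreign nucleic acid in a cell can be sensed by receptors such as RIG-I (Ddx58) and can switch on interferon response genes, whose products block viral replication and raise antigen presentation on MHC class I. Converted fibroblasts can also keep fibroblast genes to different degrees from line to line, alongside the plasma proteins and enzymes that mark hepatocytes.

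Signals were RMA values, log2 units that the authors deposited for each probe set. A gene was represented by 1 probe set. It was tested where its signal exceeded the 40th percentile of all probe sets on the array (5.52 to 5.60). This had to hold on at least 3 of the 7 arrays, which left 13440 genes. Signals under that percentile are near background, where the size of a difference is not fixed. Sample markers matched the label in part. All 4 epithelial markers were above that percentile on all 7 arrays, whereas of 6 measured hepatocyte markers 2 (Alb and Apoa1) were above it and 2 (Fga and Cps1) below it on all 7. The mean of the hepatocyte markers was 6.32 to 9.55 in the lines and 9.16 to 9.60 on the scramble arrays. Of 7 fibroblast markers 3 were above it and 1 (Thy1) below it on all 7, and their mean was 5.62 to 7.90 in the lines and 8.18 to 8.38 on the scramble arrays. Of 7 colon markers 2 (Cdx2 and Lgals4) were above it and 2 (Slc26a3 and Car1) below it on all 7. Foxa1 lay between 4.14 and 4.52 in the untransduced lines and between 4.01 and 4.42 on the scramble arrays, under that percentile everywhere, so its probe set gave no readable level. Of 5 leukocyte markers 3 (Ptprc, Laptm5 and Coro1a) were below it and 0 above it on all 7 arrays, and of 5 endothelial markers 4 (Pecam1, Cdh5, Emcn and Tek) were below it and 1 (Kdr) above it on all 7. The 3′ to 5′ difference of actin probe sets ran from 0.32 to 0.49 and that of Gapdh from -0.09 to 0.13. Hybridization spikes averaged 11.12 to 11.37 in the lines and 11.25 to 11.48 on the scramble arrays. Poly-A spikes averaged 8.61, 8.49 and 8.78 in the lines and 8.66, 8.97, 9.01 and 8.99 on scramble arrays 1 to 4. Scramble arrays 2 to 4 were thus above all lines for poly-A spikes. Whether this bears on the gene differences was not tested.

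The untransduced lines differed from each other more than the scramble arrays did, and line 1 stood apart from the other 6 arrays. Line 1 differed by at least 1 log2 unit from line 2 in 989 genes, from line 3 in 1136 genes and from the scramble arrays in 1048 to 1346 genes. Lines 2 and 3 differed from each other in 552 genes. Line 3 was nearest to the scramble group: it differed from scramble array 2 in 160 genes and from scramble array 1 in 241, fewer than from either of the other lines. Within the scramble group, arrays 1 and 2 differed in 40 genes and arrays 3 and 4 in 11, whereas the counts between those pairs were 52 to 312. The Cdx2 shRNA arrays split in the same way. Their arrays 1 and 2 differed in 62 genes and arrays 3 and 4 in 3, with 388 to 918 between those pairs. The labels give no source for this split. The SD over the 3 lines had a median of 0.21 and exceeded 1 in 499 genes, and the SD over the 4 scramble arrays had a median of 0.14 and exceeded 1 in 10 genes. Of the tested genes, 69.0% had the larger SD among the untransduced lines. The lines were independent, whereas the scramble arrays may not be separate cultures, so the 2 spreads may differ in kind.

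**Figure D1:**
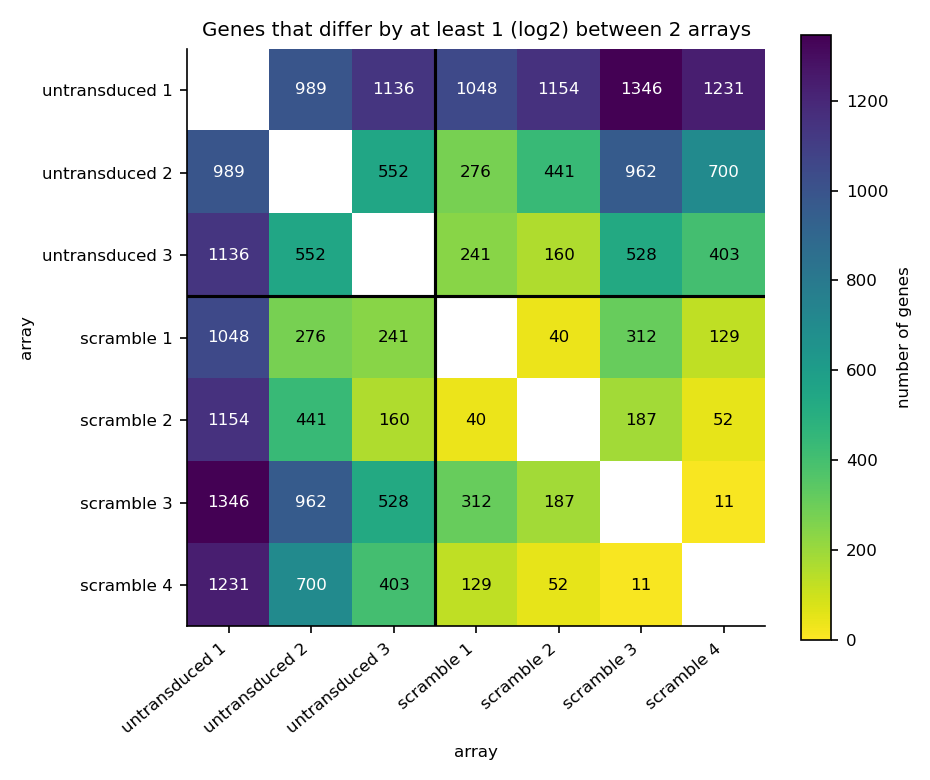
Number of tested genes that differ by at least 1 log2 unit between each pair of the 7 arrays; rows and columns are arrays, black lines separate the untransduced from the scramble arrays, and colour and digits give the count. Counts with untransduced line 1 run from 989 to 1346, and counts within the scramble group from 11 to 312.

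By the range over the 3 lines, the widest genes were Rpl39l, Ogn, Ttr, Igf2, Col6a3, Cyp3a11, Dclk1 and Bgn. Rpl39l, a ribosomal protein gene copy, measured 4.53, 12.16 and 12.34 in lines 1 to 3 and 12.07 to 12.37 on the scramble arrays. Ogn, a small leucine-rich matrix proteoglycan, measured 4.41, 11.46 and 11.92 in the lines and 11.80 to 12.20 on the scramble arrays. Bgn, another matrix proteoglycan, measured 7.48, 13.43 and 13.25 against 13.55 to 13.66. In these 3 genes line 1 alone was low, and lines 2 and 3 were near the scramble arrays. Ttr, which encodes the thyroid hormone carrier transthyretin, measured 4.93, 8.84 and 12.00 in the lines and 11.80, 12.71, 12.67 and 12.45 on the scramble arrays. Igf2, a fetal growth factor gene, measured 7.35, 10.76 and 13.87 in the lines against 12.96 to 13.99. For these 2 genes all 3 lines differed from one another, and line 3 fell inside the range of the scramble arrays. For Rpl39l, Ogn and Ttr line 1 was under the 40th percentile of its array, near background.

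Over the 4 scramble arrays the widest genes by range were Reg3b, Gm12888, Cyp3a16 and Dio1. Reg3b, an antimicrobial lectin gene of gut and inflamed liver, measured 6.40, 8.68, 9.92 and 9.58 on scramble arrays 1 to 4 and 5.21, 6.04 and 8.57 in the lines. Dio1, the liver deiodinase that activates thyroid hormone, measured 4.96, 6.70, 7.57 and 7.31 against 4.35, 4.17 and 5.83. Cyp3a16, a fetal and neonatal cytochrome P450, measured 5.98, 6.15, 3.11 and 4.04 against 3.25, 6.71 and 5.08. Gm12888 measured 7.60, 10.45, 10.19 and 9.91 against 4.95, 6.77 and 9.03. The groups overlapped in all 4 genes, and scramble arrays 3 and 4 were nearer to each other than to array 1.

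Against this spread, limma called 1 of 13440 genes at an adjusted p under 0.05 (0.00744% of the genes tested): Ms4a4c rose with scramble shRNA, and 0 genes fell. At an unadjusted p under 0.05 there were 2358 genes, 17.5% of those tested. Leaving out line 1 gave 9 called genes, leaving out line 2 gave 5 and leaving out line 3 gave 243, of which 196 were higher (1.46%) and 47 lower (0.35%) with scramble shRNA. With the Cdx2 shRNA arrays also in the fit, 34 genes were called higher (0.253%) and 8 lower (0.0595%). Leaving out scramble array 2, 3 or 4 gave 0 called genes, and leaving out array 1 gave 2. The lone call and the size of the call list therefore rested on which arrays were in the fit. Group means differed by at least 1 log2 unit in 388 genes, 351 higher and 37 lower on the scramble arrays. All 4 scramble arrays lay above all 3 lines in 1330 genes (9.90%) and below them in 823 genes (6.12%), so 61.8% of the genes without overlap were higher. That share was 50.4% after quantile normalization over the 7 arrays. Without line 1 the counts were 2025 (15.1%) and 1328 (9.88%). With a filter at the 60th percentile and all 3 lines, 1202 of 10202 genes were above and 501 below, 70.6% of them higher. The shares of all genes above and below thus differed with the signal filter.

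Ms4a4c encodes a tetraspanning membrane protein of the MS4A family, known mostly from lymphoid and myeloid cells; the leukocyte markers Ptprc, Laptm5 and Coro1a were under the 40th percentile on all 7 arrays. Its probe set measured 6.10, 6.34 and 6.17 in lines 1 to 3 and 7.42, 7.60, 7.71 and 7.67 on the scramble arrays. Every scramble array was above every line by more than the spread inside either group. The log2 fold change was 1.39 ± 0.11 (SE, limma, adjusted p = 0.0306, n = 3 and 4), and it was 1.34 without line 1. A second probe set of Ms4a4c, with less signal, measured 2.84, 3.91 and 4.30 against 6.31, 6.61, 7.03 and 6.94. Both probe sets can share sequence with family members, so the signal may not be that of Ms4a4c alone. Ms4a4d, another member of the family, measured 3.82, 8.69 and 9.03 against 10.20, 9.96, 10.59 and 10.46, without overlap and without a call (adjusted p = 0.245). Its line 1 value was under the 40th percentile of that array. Ms4a4c ended at adjusted p = 0.289, 0.118 and 0.292 when scramble array 2, 3 or 4 was left out, and its adjusted p ran from 0.0123 to 0.302 over the alternatives that set no minimum fold. On the 4 Cdx2 shRNA arrays Ms4a4c measured 6.91 to 7.72, in engrafted iHeps 4.65 to 5.10, in fetal liver 7.90 to 8.50 and in adult liver 6.60 to 7.54.

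Promoter stretches of the called gene and of 3 genes of the interferon and MHC class I lists are shown because these lists, described next, held many genes with higher scramble signals. Each is the 150 bases before the RefSeq transcript start, in the direction of the gene (GRCm38.p6), and capitals mark the core of an interferon-stimulated response element, TTTCNNTTTC or its reverse complement GAAANNGAAA. Ms4a4c (chr19:11407511-11407660, + strand) has no match in the stretch, Ifit3 (chr19:34583379-34583528, + strand) has 1, Gbp2 (chr3:142620513-142620662, + strand) has 1 and B2m (chr2:122147537-122147686, + strand) has 1.
Ms4a4c: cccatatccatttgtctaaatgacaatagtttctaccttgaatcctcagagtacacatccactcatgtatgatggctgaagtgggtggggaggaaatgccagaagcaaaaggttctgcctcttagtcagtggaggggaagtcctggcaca
Ifit3: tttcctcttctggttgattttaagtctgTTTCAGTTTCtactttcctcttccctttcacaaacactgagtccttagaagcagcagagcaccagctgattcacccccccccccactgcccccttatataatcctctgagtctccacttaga
Gbp2: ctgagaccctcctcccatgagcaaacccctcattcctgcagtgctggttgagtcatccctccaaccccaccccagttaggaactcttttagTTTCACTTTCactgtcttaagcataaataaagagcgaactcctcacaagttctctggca
B2m: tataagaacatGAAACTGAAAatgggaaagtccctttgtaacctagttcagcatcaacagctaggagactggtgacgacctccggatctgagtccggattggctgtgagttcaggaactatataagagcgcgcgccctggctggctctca

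In the 250 bases before the start, searched on both strands, 936 of 27025 genes with a promoter window held this core (3.46%). Of the 35 tested interferon response genes, 26 had a window and 11 of them held the core (42.3%). Of the 12 MHC class I genes, 10 had a window and 1 held the core, B2m. The 3 list genes printed above all hold the core, so they do not stand for their lists. All 4 scramble arrays lay above all 3 lines for 6 of the 11 interferon response genes with the core and for 8 of the 15 without it. The core is a description of these windows, and a gene without it may be controlled from other sequence.

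With all 3 lines in the comparison, interferon response genes had the largest median difference of the 32 lists; without line 1 plasma proteins (0.48) and DNA replication genes (-0.78) were farther from 0. All 35 tested genes had a log2 fold change above 0, with a median of 1.12 against 0.0054 over all genes tested. In 19 of the 35 every scramble array was above every line, where 9.90% of all genes were, and in 0 every scramble array was below. None of the 35 passed the limma threshold, and 13 of 35 had an unadjusted p under 0.05, against 17.5% of all genes. The mean over the 35 genes was 7.35, 9.53 and 9.24 in lines 1 to 3 and 9.97, 9.85, 9.83 and 9.87 on the scramble arrays. Line 1 was far below the other 6 arrays, and lines 2 and 3 were also below all 4 scramble arrays. Without line 1 the median log2 fold change was 0.45, and 20 of the 35 genes lay above both remaining lines on every scramble array, where 15.1% of all genes did.

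Among the effectors, Ifit3, a member of the IFIT family, measured 7.15, 9.92 and 8.38 in the lines and 10.66, 10.18, 10.89 and 10.91 on the scramble arrays (log2 fold change 2.18 ± 0.57 SE, adjusted p = 0.187, limma). Iigp1, an interferon-inducible GTPase that attacks pathogen vacuoles, measured 5.29, 8.82 and 9.27 against 10.86, 10.89, 10.67 and 10.62. Its log2 fold change was 2.96 ± 0.85 with all 3 lines (adjusted p = 0.203) and 1.71 without line 1, where it was called. Gbp2, a guanylate-binding protein, measured 4.32, 8.68 and 8.12 against 9.27, 9.07, 9.20 and 8.92. For Iigp1 and Gbp2 line 1 was under the 40th percentile of its array, where a probe set's own background limits the size of a difference. Zbp1, a sensor of Z-form nucleic acid, measured 5.35, 6.40 and 6.55 against 7.40, 7.28, 7.61 and 7.53. For Zbp1, too, line 1 was under that percentile. Oas1a, which makes the second messenger that activates RNase L, measured 9.14, 11.58 and 11.36 against 11.83, 11.70, 11.62 and 11.64, so that its separation from line 2 was slight.

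Among sensors and transcription factors of the pathway, Ddx58, Irf7 and Stat2 were apart between the groups, whereas the sensors Ifih1 and Eif2ak2 and the factor Irf9 overlapped. Ddx58, the RNA sensor RIG-I, measured 8.31, 9.42 and 9.65 in the lines and 9.81, 9.87, 9.91 and 9.80 on the scramble arrays. Irf7, the factor that amplifies type I interferon, measured 6.84, 8.69 and 8.48 against 9.22, 9.14, 9.11 and 9.03. Stat2, a subunit of the interferon-activated complex, measured 5.03, 7.52 and 7.42 against 8.13, 8.20, 8.17 and 8.04. For Stat2 line 1 was under the 40th percentile of its array. All 4 scramble arrays were above all lines for these 3 genes, with adjusted p between 0.242 and 0.270 (limma). Usp18, which damps the interferon receptor, measured 6.84, 11.09 and 10.43 against 11.56, 11.45, 11.47 and 11.56. The remaining 16 of the 35 genes overlapped between the groups, with log2 fold changes from 0.09 (Isg20) to 2.05 (Trim30a). Mx1 and Mx2, large antiviral GTPases, were among them at 0.27 and 0.20.

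The interferon list was not uniformly as high in the other shRNA cultures. Its mean was 9.46 and 9.34 on Cdx2 shRNA arrays 1 and 2, and 8.25 and 8.26 on arrays 3 and 4. Arrays 1 and 2 fell among lines 2 and 3, and arrays 3 and 4 lay between line 1 and lines 2 and 3. Irf7 spanned 6.86 to 8.48 on those 4 arrays, Usp18 8.57 to 10.31 and Ifit3 8.27 to 9.74, below all 4 scramble arrays in each case. The Cdx2 shRNA arrays are compared with the same scramble arrays in the study, so only their levels are given.

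MHC class I and antigen processing genes showed smaller differences and a smaller part for line 1. All 12 tested genes had a log2 fold change above 0 (median 0.63, and 0.32 without line 1), and in 10 of 12 all scramble arrays were above all lines, both with and without line 1, where 9.90% and 15.1% of all genes were. None passed the limma threshold, and 10 of 12 had an unadjusted p under 0.05, against 17.5% of all genes. The mean over the list was 9.36, 10.26 and 10.41 in the lines and 10.88, 10.78, 10.75 and 10.70 on the scramble arrays. Tap2, a subunit of the peptide transporter of the endoplasmic reticulum, measured 7.20, 7.85 and 8.45 against 9.04, 9.18, 8.79 and 8.85 (log2 fold change 1.13 ± 0.27, adjusted p = 0.185, limma). Psmb9, an immunoproteasome subunit, measured 7.20, 8.37 and 8.53 against 9.52, 9.28, 9.02 and 8.97. H2-D1, a class I heavy chain, measured 12.04, 12.42 and 12.83 against 13.04, 13.08, 13.06 and 13.01. H2-K1, another class I heavy chain, measured 12.02, 12.41 and 12.73 against 12.98, 12.95, 12.88 and 12.80. For both heavy chains line 3 came near the scramble arrays and line 1 was the lowest. B2m, their common light chain, measured 13.40, 13.61 and 13.54 against 13.83, 13.74, 13.83 and 13.73. H2 genes are close paralogs, and their probe sets may share signal. Psmb8 belonged to both this list and the interferon list. On the 4 Cdx2 shRNA arrays the list mean was 10.48, 10.38, 9.77 and 9.81.

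**Figure D2:**
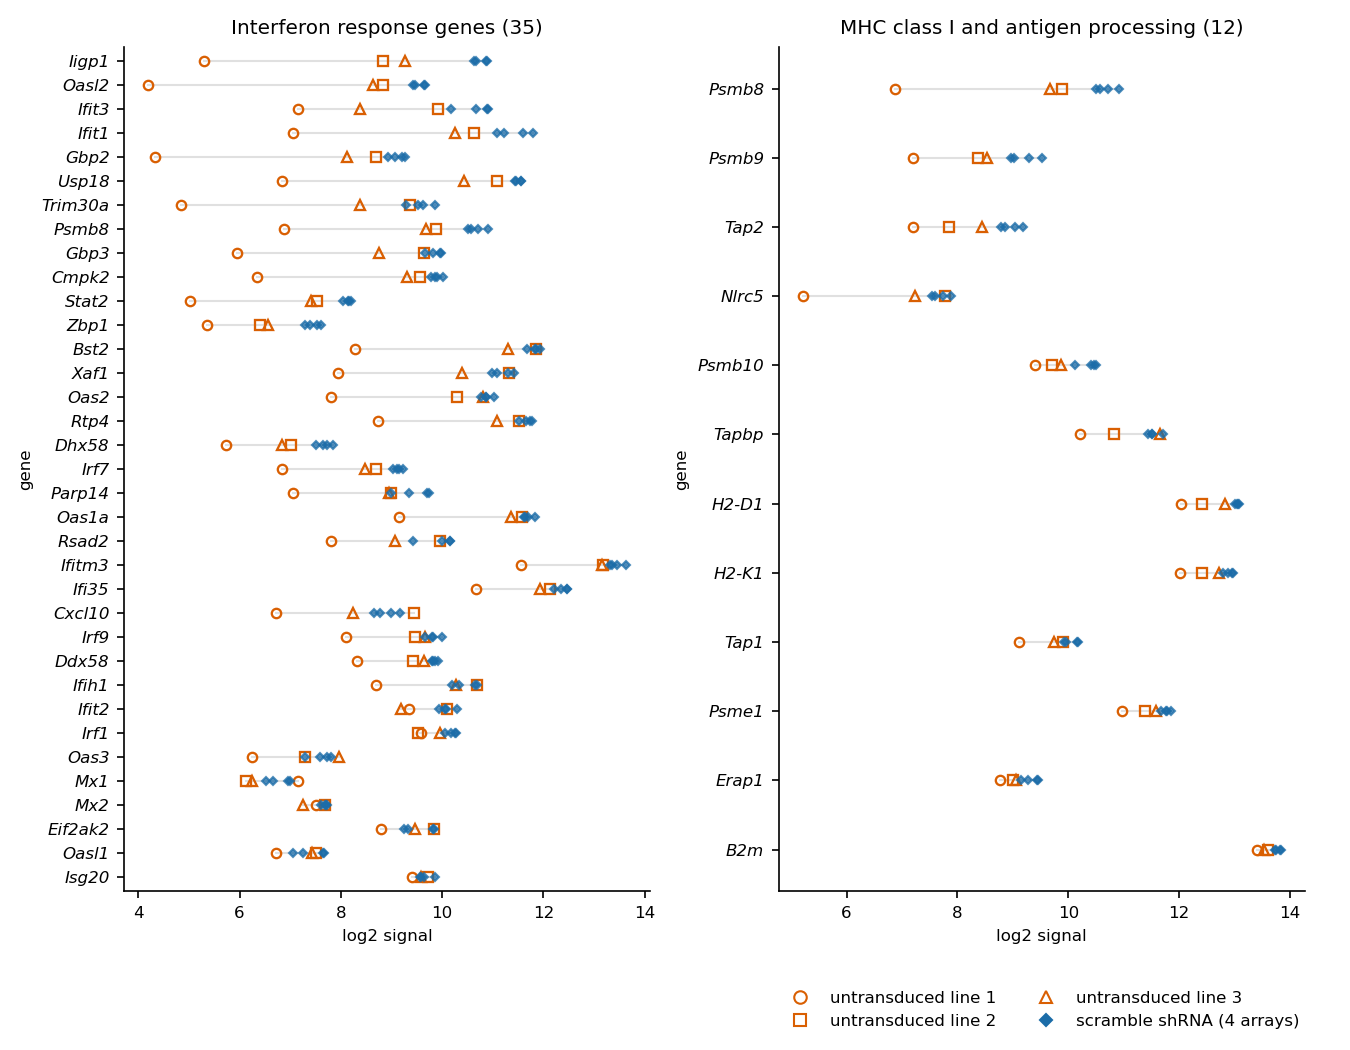
Log2 signal of each tested gene of the interferon list (left, 35 genes) and of the MHC class I and antigen processing list (right, 12 genes), sorted by log2 fold change; open orange symbols are the 3 untransduced lines, blue diamonds the 4 scramble arrays, and grey lines span the 7 values. All scramble values lie to the right of all lines for 19 and 10 genes, and line 1 (circle) is the lowest for most genes of the left panel.

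Several chemokine genes were above all lines on every scramble array, whereas the classical cytokines Il1b and Tnf overlapped between the groups. Of 25 tested inflammatory and NF-kappaB genes, all scramble arrays were above all lines in 8 and below them in 3, against 9.90% and 6.12% of all genes (median log2 fold change 0.21). Ccl2, a monocyte chemoattractant, measured 7.07, 10.16 and 9.85 in the lines and 11.05, 10.66, 11.04 and 10.98 on the scramble arrays. Ccl7, a related chemokine, measured 5.74, 9.09 and 8.26 against 10.01, 9.57, 10.10 and 10.14. Ccl5, a chemokine also induced by interferon, measured 7.77, 9.81 and 9.08 against 10.21, 10.04, 10.07 and 10.24. Line 1 was lowest for all 3. Cxcl15, a lung-type chemokine, measured 5.66, 6.27 and 6.51 against 7.80, 7.63, 8.25 and 8.06, and its log2 fold change of 1.79 ± 0.23 had an adjusted p of 0.069 (limma). Il33, an alarmin, was the clearest gene in the other direction, with 9.76, 11.32 and 9.90 against 9.40, 9.45, 8.42 and 9.27. Il1b and Tnf had log2 fold changes of -0.03 and -0.21.

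By log2 fold change, the 6 highest genes without overlap were Cyp3a11, Serpinf1, Col3a1, Ifitm1, Ms4a4d and Lcn2. Serpinf1, the secreted anti-angiogenic factor PEDF, measured 4.47, 6.60 and 7.27 in the lines and 9.43, 9.17, 9.96 and 9.43 on the scramble arrays (log2 fold change 3.38 ± 0.59, adjusted p = 0.158, limma). Cyp3a11, a main hepatic drug-metabolizing cytochrome P450, measured 4.13, 9.37 and 10.50 against 10.89, 11.13, 11.87 and 11.74 (3.41 ± 1.34, adjusted p = 0.263). Ifitm1, an interferon-induced membrane protein, measured 6.31, 8.95 and 10.51 against 11.58, 11.35, 12.09 and 11.83 (3.12 ± 0.84, adjusted p = 0.187). In all 3 genes line 3 was the highest line and line 1 the lowest, and the SE reflects that spread. For Serpinf1 and Cyp3a11 line 1 was under the 40th percentile of its array (5.60), so the size of these fold changes is not fixed. Serpinf1 was also called without line 1 and without line 3, and its second probe set measured 7.04, 7.46 and 7.61 against 8.69, 8.58, 9.23 and 8.73. On the 4 Cdx2 shRNA arrays Serpinf1 measured 5.92 to 7.80, below all 4 scramble arrays, and Cyp3a11 7.09 to 11.95.

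Aqp1, Slc9a9 and Aox3, picked here after their values were seen, were higher on every scramble array with an adjusted p of 0.069 (limma) each. Aqp1, a water channel, measured 5.11, 5.57 and 5.40 against 6.64, 7.16, 7.30 and 7.41. Slc9a9, an endosomal sodium/proton exchanger, measured 4.84, 4.98 and 5.22 against 6.87, 6.82, 6.24 and 6.65. Aox3, a hepatic aldehyde oxidase, measured 5.96, 6.36 and 6.35 against 7.55, 7.28, 7.47 and 7.62. The lines were close together in these 3 genes, and line 1 was not apart. However, Slc9a9 was under the 40th percentile of the array in all 3 lines, and Aqp1 in lines 1 and 3. Background can narrow the spread among the lines there, so for these genes closeness does not show that the lines agreed. Ifi47, an interferon-inducible GTPase also picked after its values were seen, measured 6.00, 7.29 and 7.10 against 8.69, 8.72, 9.29 and 9.48 (2.24 ± 0.34, adjusted p = 0.105).

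Fibroblast and matrix genes had a median log2 fold change of 1.04 over 31 tested genes, which was 0.27 without line 1. All scramble arrays were above all lines in 8 of them and below in 0, and the same counts held without line 1. Of all genes, 9.90% were above and 6.12% below, or 15.1% and 9.88% without line 1. None passed the limma threshold, and 6 of 31 had an unadjusted p under 0.05, a share near the 17.5% of all genes. The list mean was 7.48, 9.57 and 9.33 in the lines and 9.77, 9.71, 9.81 and 9.78 on the scramble arrays, so lines 2 and 3 were much nearer to the scramble arrays than line 1 was. Col3a1, a fibrillar collagen, measured 5.22, 8.18 and 8.52 on lines 1 to 3 and from 9.62 to 11.38 on the scramble arrays. Dcn, the proteoglycan decorin, measured 5.28, 5.98 and 6.30 against 6.43, 6.59, 7.37 and 7.20. Pdgfrb, the receptor that marks mesenchymal cells, measured 4.45, 9.48 and 9.86 against 10.44, 10.30, 10.30 and 10.06. For Col3a1, Dcn and Pdgfrb line 1 was under the 40th percentile of its array. Col1a1, Vim and Fn1 overlapped between the groups, with log2 fold changes of 0.46, -0.22 and -0.20. In such bulk samples, more fibroblast-like cells and more RNA per cell cannot be told apart.

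Plasma proteins, the main secretory product of hepatocytes, had a median log2 fold change of 0.87 over 27 tested genes, and 0.48 without line 1. All scramble arrays were above all lines in 5 of 27 and below in 0, against 9.90% and 6.12% of all genes. Without line 1 the first count was 9, against 15.1%. None passed the limma threshold, and 11 of 27 had an unadjusted p under 0.05, against 17.5% of all genes. Apoe, an apolipoprotein, measured 7.17, 8.20 and 8.22 in the lines and 9.24, 9.70, 10.37 and 10.09 on the scramble arrays (log2 fold change 1.98 ± 0.34, adjusted p = 0.155, limma). Cp, the copper carrier ceruloplasmin, ranged from 10.70 (line 1) to 11.87 (line 3) against 12.12, 12.36, 12.77 and 12.66. Lcn2, an acute-phase protein that captures bacterial iron carriers, measured 4.78, 7.10 and 8.69 against 9.12, 8.71, 11.02 and 10.46. Its line 1 value was under the 40th percentile of that array. Alb, by contrast, measured 5.69, 9.90 and 11.59 against 9.61, 10.25, 9.19 and 9.24. The scramble arrays lay inside the range of the lines for Alb, and its log2 fold change turned from 0.51 to -1.17 without line 1. Apoa1, an apolipoprotein of liver and gut, measured 14.89 to 14.97 in the lines and 14.91 on all 4 scramble arrays.

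Hnf4a, the transduced hepatic nuclear receptor, measured 7.67, 10.78 and 10.48 in the lines and 10.43, 10.48, 9.82 and 10.22 on the scramble arrays, and its log2 fold change turned from 0.59 ± 0.69 to -0.39 without line 1. Cdx2, the intestinal homeobox factor that the study targeted in sister cultures, measured 10.33, 8.97 and 9.17 against 9.14, 9.42, 8.96 and 8.98 (log2 fold change -0.37 ± 0.31, adjusted p = 0.539, limma). By these probe sets line 1 had the highest Cdx2 and the lowest Hnf4a of the 7 arrays. Another Hnf4a probe set measured 6.46, 6.18 and 6.48 in the lines and 6.13 to 6.45 on the scramble arrays, so line 1 was not low there. The remaining Hnf4a probe sets measured 4.96 and 3.92 in line 1, again the lowest of the 7 arrays. Of 16 tested liver regulators all scramble arrays were above all lines in 2, Rora and Onecut1, and of 17 intestinal regulators in Hoxa9 and Hoxa10, with Foxq1 below; these shares are near the 9.90% and 6.12% of all genes. Rora, a nuclear receptor of the circadian clock, measured 8.29, 7.45 and 8.33 against 8.50, 9.08, 8.94 and 9.11. Hoxa9, a trunk patterning factor, measured 10.28, 10.66 and 10.81 against 11.13, 11.22, 11.08 and 11.29. Of 10 tested genes of hepatocyte metabolism, 2 were above and 1, Cyp8b1, below without overlap, too few genes to set against those shares.

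Oncofetal and imprinted genes followed the matrix genes in their dependence on line 1, with a median log2 fold change of 1.00 over 16 tested genes and 0.29 without it. Peg3, a paternally expressed zinc-finger gene, measured 7.22, 10.62 and 12.27 in the lines and 12.28, 12.73, 12.61 and 12.47 on the scramble arrays. Gpc3, a fetal liver glypican, measured 5.90, 8.56 and 9.60 against 9.81, 10.07, 9.75 and 10.11. All scramble arrays were above all lines in 4 of the 16 (also Meg3 and Dlk1) and below in 1, Igf2bp1, against 9.90% and 6.12% of all genes. Grb10, an imprinted growth inhibitor, showed another order: it measured 5.06, 9.92 and 10.00 in the lines and 8.06, 8.37, 8.28 and 8.36 on the scramble arrays. The scramble arrays lay between line 1 and lines 2 and 3 for Grb10, and without line 1 it was called lower with a log2 fold change of -1.69. On the Cdx2 shRNA arrays Grb10 measured 9.09 to 10.09.

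**Figure D3:**
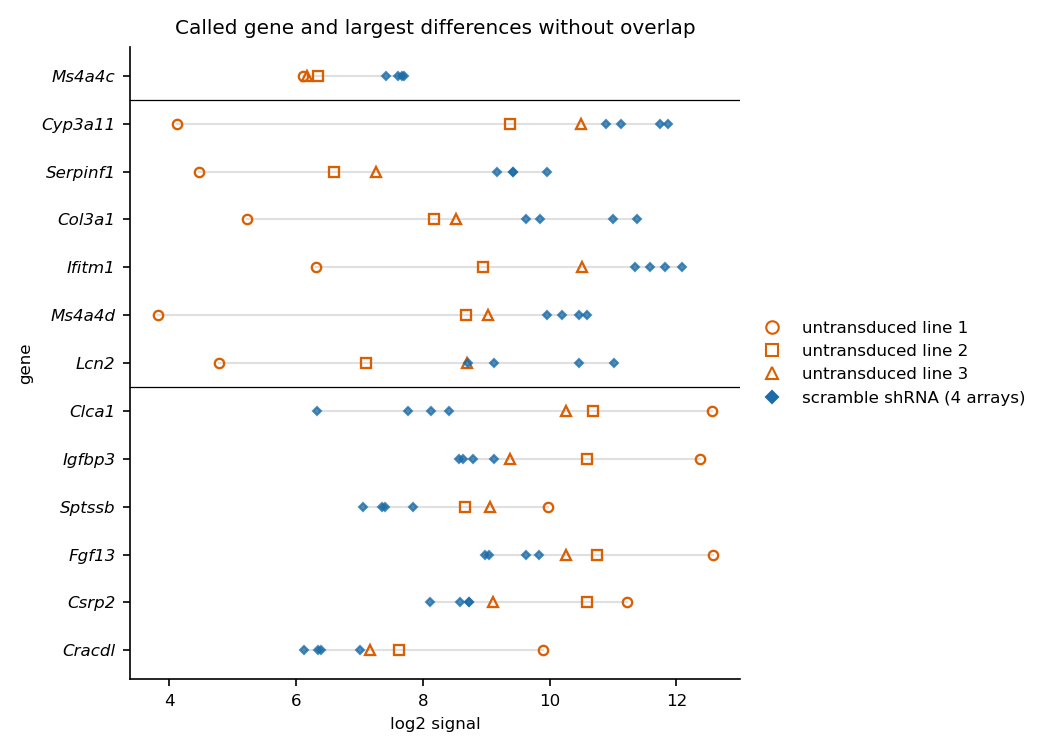
Log2 signal of the called gene (top), of the 6 genes with the highest and the 6 with the lowest log2 fold change among genes whose groups did not overlap; open orange symbols are the 3 untransduced lines and blue diamonds the 4 scramble arrays. For the higher genes line 1 (circle) is farthest from the scramble arrays, and for the lower genes it is the highest value.

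The 6 lowest log2 fold changes without overlap were those of Clca1, Igfbp3, Sptssb, Fgf13, Csrp2 and Cracdl. Clca1, a mucus-associated protein of goblet cells, measured 12.56, 10.69 and 10.26 in the lines and 7.76, 8.12, 6.34 and 8.42 on the scramble arrays (log2 fold change -3.51 ± 0.65, adjusted p = 0.168, limma). It stayed apart without line 1 at -2.82, and it was called where line 3 was left out. Igfbp3, a carrier of insulin-like growth factors, measured 12.38, 10.59 and 9.38 against 9.12, 8.80, 8.57 and 8.63. Fgf13, an intracellular FGF family member, measured 12.57, 10.74 and 10.26 against 9.84, 9.62, 8.99 and 9.05. Line 1 was the highest and line 3 the lowest line for all 3. Sptssb, a subunit of the first enzyme of sphingolipid synthesis, measured 9.97, 8.66 and 9.06 against 7.36, 7.85, 7.05 and 7.40. Csrp2, a LIM-domain protein, measured 11.22, 10.59 and 9.11 against 8.73, 8.59, 8.11 and 8.73, and Cracdl had a log2 fold change of -1.76 ± 0.60. On the Cdx2 shRNA arrays Clca1 measured 5.84 to 7.15 and Sptssb 6.10 to 7.48. Clca1 was 12.08 to 13.16 in engrafted iHeps and 12.26 to 12.40 in colon.

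Most genes of the colon and epithelial lists overlapped between the groups. Of 31 tested colon epithelium genes all scramble arrays were below all lines in 3 (Clca1, Krt18 and Fcgbp) and above in 0, against 6.12% and 9.90% of all genes, and the median log2 fold change was 0.04, or -0.12 without line 1. Krt18, the keratin of simple epithelia, measured 13.18, 11.02 and 11.33 in the lines and 10.27, 10.55, 9.81 and 10.12 on the scramble arrays. Its partner Krt8 overlapped between the groups, with a log2 fold change of 0.03. Of 35 epithelial junction and keratin genes 3 were below (Krt18, Pkp2 and Grhl2) and 0 above, and the list median turned from 0.19 to -0.13 without line 1. Of 13 gastric and pancreatobiliary genes, Gkn3 and Tff2 were below on every scramble array.

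Proliferation genes were lower on 2 of the 4 scramble arrays. In 36 of 38 tested genes of DNA replication and mitosis the log2 fold change was below 0 (median -0.59), yet in 0 of 38 were the groups apart. None passed the limma threshold, and 5 of 38 had an unadjusted p under 0.05, a smaller share than the 17.5% of all genes. The list mean was 10.11, 10.88 and 10.36 in the lines and 10.39, 10.23, 9.27 and 9.72 on scramble arrays 1 to 4. Scramble arrays 1 and 2 lay within the range of the lines, and arrays 3 and 4 below it. Without line 1 the median was -0.78, and 20 of 38 genes were below both remaining lines on every scramble array, where 9.88% of all genes were. The Cdx2 shRNA arrays showed a like spread, with list means of 10.77, 10.58, 9.63 and 9.78. In 25 of 27 ribosome biogenesis genes the log2 fold change was below 0 (median -0.22), also with 0 of 27 apart.

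Glucocorticoid-responsive genes were higher in 9 of 19 tested genes without overlap and lower in 1, Nfkbia; 9.90% and 6.12% of all genes were. The medium described for the untransduced lines held dexamethasone, a synthetic glucocorticoid. The median log2 fold change was 0.43, and 0.33 without line 1, so that line 1 mattered less than for the interferon and matrix lists. Tsc22d3, the glucocorticoid-induced leucine zipper, measured 11.10, 11.51 and 11.46 in the lines and 11.87, 11.95, 12.21 and 12.25 on the scramble arrays (log2 fold change 0.71 ± 0.15, adjusted p = 0.174, limma). Fkbp5, a chaperone of the receptor, measured 12.37, 12.22 and 12.34 against 12.49, 12.66, 12.78 and 12.83. Errfi1, a brake on the EGF receptor, measured 11.52, 11.53 and 11.64 against 11.92, 12.09, 12.53 and 12.56. The lines lay close together for these 3 genes, and scramble arrays 3 and 4 were the highest. The list as a whole spread more over the lines. Its mean was 10.76, 10.93 and 11.32 in lines 1 to 3, with line 3 inside the range of the scramble arrays. Without line 3 the median log2 fold change was 0.60. None of the 19 passed the limma threshold, and 10 of 19 had an unadjusted p under 0.05, against 17.5% of all genes. The list mean was 11.55 to 11.75 on the Cdx2 shRNA arrays, against 11.28 to 11.68 on the scramble arrays and 10.76 to 11.32 in the lines.

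**Figure D4:**
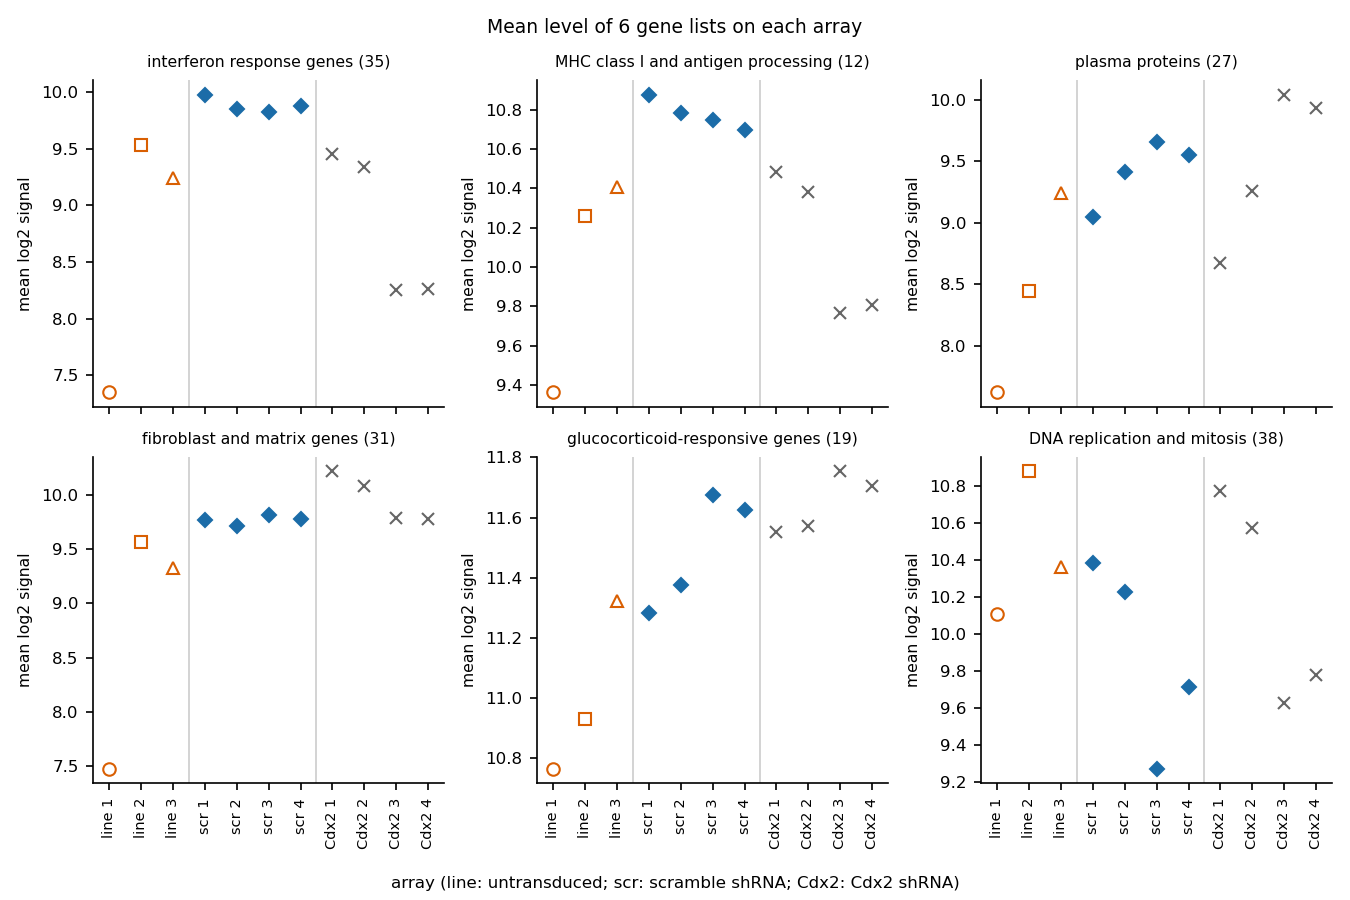
Mean log2 signal of 6 gene lists on each array, with 1 panel per list and the number of tested genes in its title; orange symbols are untransduced lines 1 to 3, blue diamonds scramble arrays 1 to 4 and grey crosses Cdx2 shRNA arrays 1 to 4, and each panel has its own vertical scale that does not start at 0. The interferon mean runs from 7.35 to 9.53 in the lines and from 9.83 to 9.97 on the scramble arrays. The DNA replication mean lies below all lines on scramble arrays 3 and 4 and on Cdx2 shRNA arrays 3 and 4.

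The counts of the stress and metabolic lists are to be read against the 9.90% of all genes that were above and the 6.12% that were below. Those shares differed with the signal filter. The mean of all tested genes was 8.50 to 8.57 in the lines and 8.58 to 8.60 on the scramble arrays. For bright lists the shares are a rough guide. The respiratory chain mean was 12.18 to 12.33 in the lines and 12.39 to 12.45 on the scramble arrays. Of 22 NRF2 and glutathione genes 5 were below on every scramble array and 2 above; Gsta2, a glutathione transferase, measured 7.90, 7.63 and 7.71 in the lines and 7.29, 6.93, 6.89 and 6.81 on the scramble arrays. Of 26 p53 target genes 4 were above (Trp53inp1, Perp, Ddit4 and Fas), while Cdkn1a and Mdm2, the textbook targets, overlapped at log2 fold changes of 0.20 and -0.20. Trp53inp1 measured 12.65, 12.64 and 12.72 against 13.00, 13.02, 13.06 and 13.16. Of 28 respiratory chain genes 8 were above and 1 below, with small differences: Sdha, a subunit of complex II, measured 11.39, 11.50 and 11.56 against 11.70, 11.84, 11.76 and 11.82. Of 20 genes of fatty acid synthesis and lipid droplets 2 were above and 3 below, among them Fasn, fatty acid synthase, at 10.34, 10.05 and 10.32 against 9.72, 10.04, 9.18 and 9.50. No gene of these 4 lists was called. In 21 sterol synthesis genes and 5 sex-linked genes 0 were apart in either direction. Xist, the X-inactivation RNA, measured 12.52 to 12.73 in the lines and 12.67 to 12.86 on the scramble arrays, and the Y-linked Eif2s3y, Kdm5d and Uty were under the 40th percentile on all 7 arrays.

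**Figure D5:**
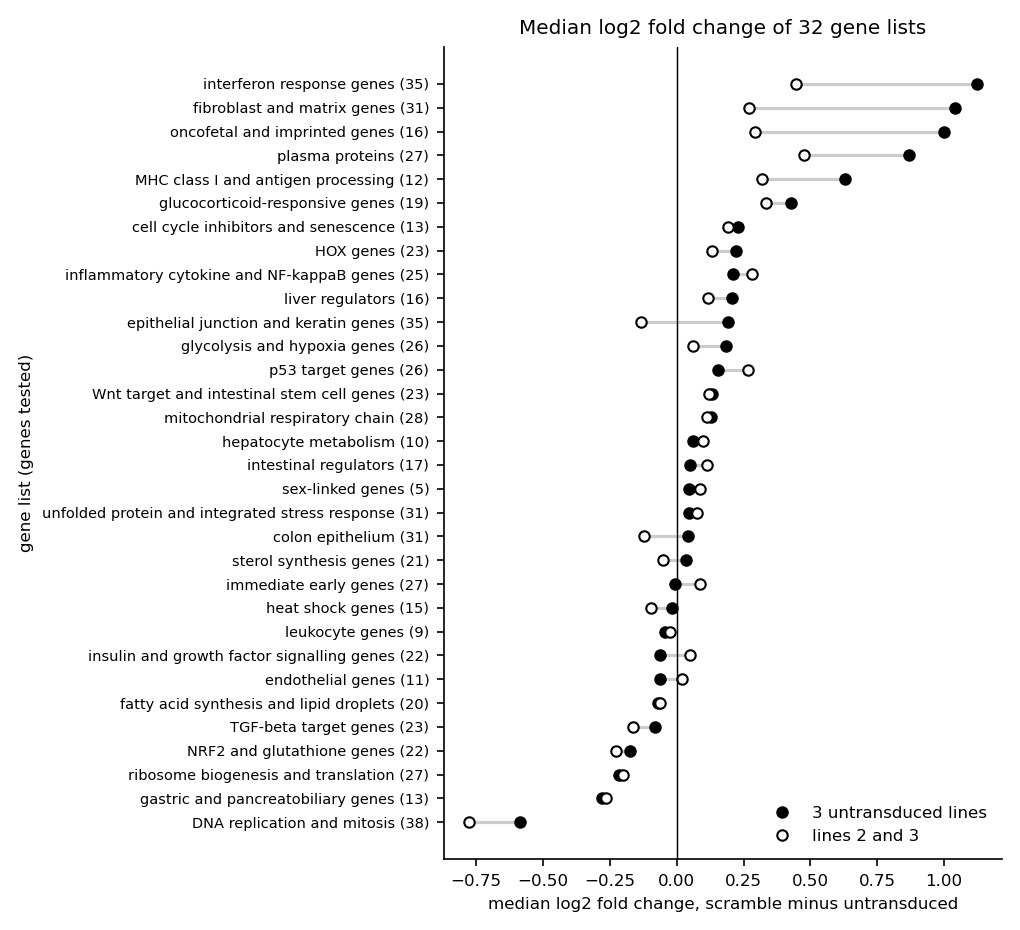
Median log2 fold change (scramble minus untransduced) of the tested genes of each of 32 gene lists, with the number of genes in brackets; filled circles use all 3 untransduced lines and open circles lines 2 and 3. The interferon median is 1.12 with all lines and 0.45 without line 1, and the DNA replication median is -0.59 and -0.78.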

How the data were processed

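RNA (100 ng, amplified and biotin-labelled, per the labels) was measured on Affymetrix mouse expression arrays. The deposited values are log2 signals that the authors made with RMA, per the submitters' processing notes; its version is not given in the sources used here. Of 45101 probe sets, 34945 had 1 symbol in the platform annotation, 932 several and 9160 none, and 64 were controls. For each of 18193 genes the probe set brightest on average across the 25 arrays was used. Groups were compared with limma 3.58.1 (lmFit, eBayes; R 4.3.3) on 7 arrays (5 residual degrees of freedom), two-sided, Benjamini-Hochberg adjusted over 13440 genes, and the code was tested on simulated data. Lists are described by counts and medians. Errors are standard errors. Precision is limited by the number of arrays.

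The groups and 32 gene lists were chosen with earlier results of these data known. Named genes were Foxa1, Hnf4a, Cdx2, Alb and Apoa1, called genes, the 6 highest and 6 lowest log2 fold changes among genes without overlap, up to 2 uncalled and 4 called members per list by size, all regulators, and the genes of widest range in each group; other list members are given as examples picked after their values were seen. Promoters came from RefSeq (GRCm38.p6). Replicate numbers did not pair the arrays: correlations of deviations were 0.06, -0.02 and 0.19.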

Additional observations from a re-analysis of the deposited data

Results flagged for a closer look

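Among 160 sets of 4 scramble values screened, 2 held an array far from the other 3. Chance gives about 1 in 20, so 2 of 160 is below the chance rate. Igfbp5, an insulin-like growth factor carrier, measured 8.03 on scramble array 1 and 9.17 to 9.24 on the other 3. Kdm5c, an X-linked histone demethylase, measured 9.75 on scramble array 1 and 9.71 on each of the other 3, a difference of no practical size.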

How the results depend on the processing

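The count of 1 called gene was the same with no filter, with a filter at the 60th percentile, after quantile normalization, after centring and with a trended robust fit. It was 0 with the mean of probe sets, with shared probe sets left out, with array weights per group, with a minimum log2 fold change of 1, with every probe set tested on its own, and with the replicate block, under which 1419 genes had an unadjusted p under 0.05. With the Cdx2 shRNA arrays in the fit it was 42 (34 higher, 8 lower), and with all 25 arrays 102 (86 higher, 16 lower). Leaving out 1 array gave 0 to 243 called genes (0 to 196 higher, 0 to 47 lower), 1431 to 2510 genes with all scramble arrays above and 915 to 2100 below. Tested per probe set, 2145 lay above and 1436 below, and 501 genes lay below with the filter at the 60th percentile. Ms4a4c kept its direction in the 18 alternatives that measured it and lost its call in 7. Of 110 named tested genes, 90 kept their sign in every alternative run; of 32 lists, 21 kept the sign of the median. A probe set near background bounds no fold exactly.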
